A study of Mus musculus with 6 samples.

Results

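Protocadherins, the largest subfamily of the cadherin adhesion proteins, were described in mouse primary neurons treated with apolipoprotein E (apoE) particles from 1 of 2 glial sources. The files held 68 gene symbols of the family. Members were the symbols whose deposited log2 value reached 3.3, or about 10 on the linear scale, in 3 or more libraries, which left 63 genes among the 15059 tested with the same filter and the 47593 symbols listed. Of the 63, 10 belonged to the Pcdha cluster, 22 to the Pcdhb cluster and 20 to the Pcdhg cluster, and 11 were non-clustered. The neurons were primary hippocampal cultures of wild-type (WT) mice, kept in Neurobasal with B27 and GlutaMAX. On culture day 10 they received 6 µg/mL of astrocytic apoE particles (n = 3 samples) or of microglial apoE particles (n = 3 samples) for 24 h, and total RNA was sequenced. The age and sex of the mice and the apoE isoform are not stated in the sources used here. Untreated neurons were not analysed here, and every direction below is microglial relative to astrocytic apoE. The labels do not tell whether the 3 libraries per treatment are separate cultures, so the p-values measure the spread among these libraries, which may be technical.

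Protocadherins carry extracellular cadherin repeats that bind the same protein on a facing cell. In the mouse the alpha, beta and gamma genes lie in tandem on 1 chromosome. Each alpha or gamma transcript joins a single large variable exon, which encodes the extracellular part, to constant exons shared by the whole cluster, whereas a beta gene is a single exon. A neuron switches on a small set of these promoters, largely by chance, with the architectural protein CTCF and cohesin, and the set gives the cell an adhesive identity used in dendrite self-avoidance. The C-type isoforms at the end of the alpha and gamma clusters are under separate control and are made by many neurons. Non-clustered protocadherins of the delta group are expressed in region-specific patterns and act in axon growth, synapse formation and cell sorting.

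Protocadherin transcripts differed little between the 2 treatments. With microglial apoE, 2 of the 63 members rose and 3 fell by limma (adjusted p under 0.05, with Benjamini-Hochberg adjustment across the 15059 genes), which is 7.94% of them. Among all genes tested, 24.8% were called in either direction, 13.0% higher and 11.8% lower. The called members were Pcdhgc3 and Pcdh18, which were higher, and Pcdh11x, Pcdh10 and Pcdhb2, which were lower. Their differences ran from -0.12 to 0.12 on the log2 scale. The median difference of all members was -0.02, and that of all genes tested was -0.00057. The median size of the difference, whatever its sign, was 0.03 for the members and 0.04 for all genes tested. In 11 members (17.5%) the 3 libraries of one treatment did not overlap with the 3 of the other, against 38.9% of all genes tested. The number of called members was 2 without astrocytic replicate 1 or without microglial replicate 1, and 3 without astrocytic replicate 2. After median centring it was 7, when 28.2% of all genes were called.

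**Figure D1:**
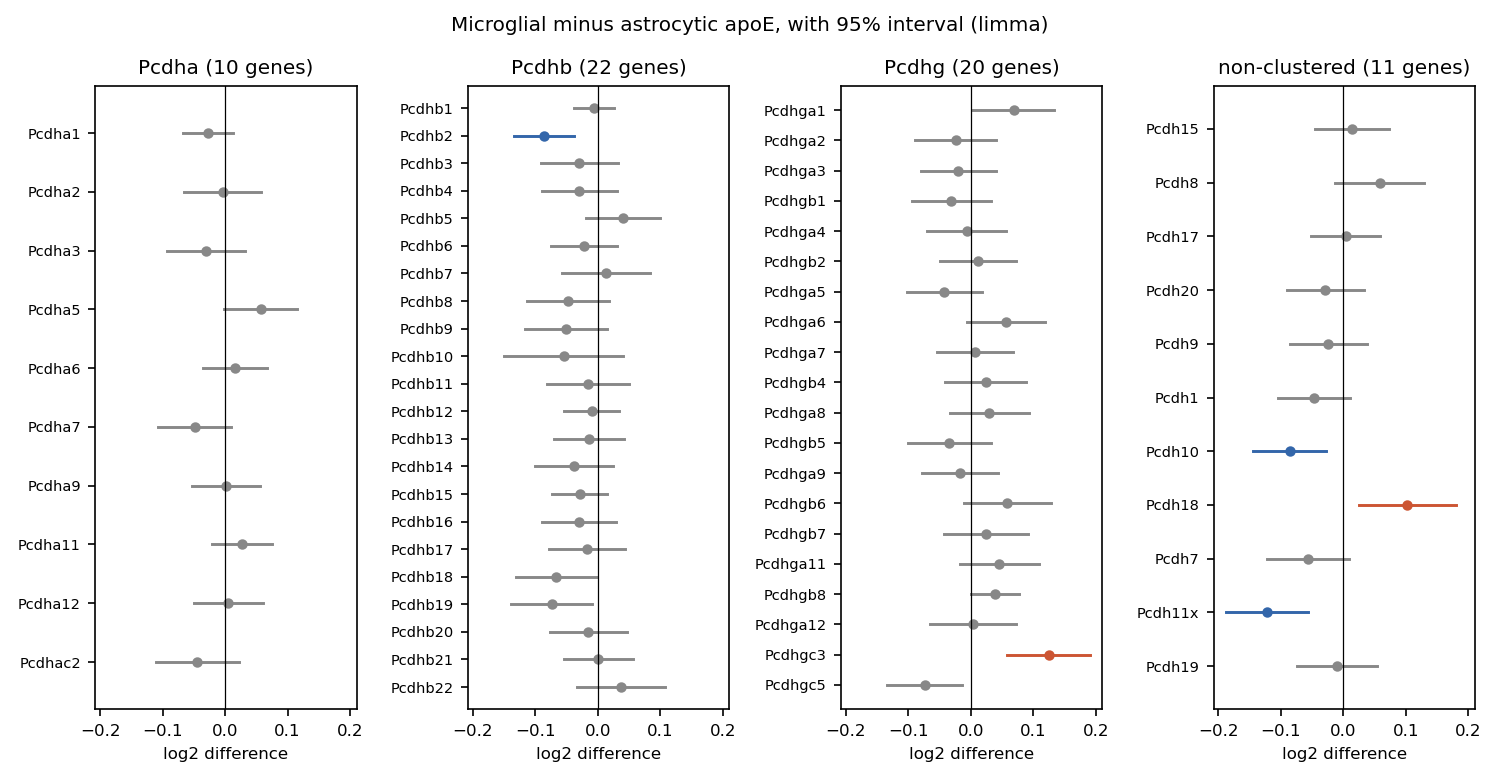
Difference in log2 value, microglial minus astrocytic apoE (horizontal axis), for the 63 protocadherins (rows, in chromosomal order within each panel). Points are limma estimates and bars 95% intervals, red for genes called higher, blue for genes called lower and grey for the rest. No Pcdha gene passed, 1 Pcdhb and 1 Pcdhg gene did, and 3 non-clustered genes did.

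The 58 members that did not pass had differences from -0.07 to 0.07. Their 95% intervals reached no further than -0.15 and 0.13, so under this model differences of more than 1.11-fold lower or 1.10-fold higher lay outside every one of those intervals. The intervals rest on transformed values and may be too narrow. At levels of 6 to 8, where 31 of the members lie, the median SD within a treatment was 0.0336 over all genes tested and 0.0361 over the members, where counting alone would give 0.121 if 2 to the power of the value were a count. The depth of the libraries is unknown, and the fold changes of weakly expressed members are shrunk as well.

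In the libraries as a whole, 1962 genes were called higher and 1780 lower, so 52.4% of the calls were higher. That share was 34.8% after each library was centred on its median, 65.6% with the sum of 2 to the power of the value made equal, and 41.6% with mitochondrially encoded genes left out of that sum. Mitochondrially encoded genes made up 6.46% to 7.92% of the sum in the astrocytic and 5.71% to 5.77% in the microglial apoE libraries, without overlap, and the part of this difference in the results was not tested. The median absolute difference between libraries was 0.026 to 0.037 within a treatment and 0.043 to 0.056 between treatments. The neuronal label was checked with 10 pan-neuronal markers, whose summed 2 to the power of the value was 85944 to 86838 with astrocytic and 82779 to 83524 with microglial apoE, and 4 of them fell. Other cell types were present too. Of 11 tested astrocyte markers, 9 fell and 1 rose with microglial apoE, and their sum, with the 1 marker under the filter, was 74115 to 75307 with astrocytic and 62564 to 63136 with microglial apoE. Of 12 markers of dividing cells and progenitors, 8 fell and 2 rose. Of 10 inhibitory neuron markers, 7 rose and 1 fell. Among 9 excitatory neuron markers 1 rose and 4 fell. In bulk samples fewer cells of a type and less RNA per cell cannot be told apart, and the part of these shifts in the results below was not tested.

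How the genes overlap in the annotation bears on what a protocadherin value counts. In the GENCODE release M21 annotation (GRCm38), the Pcdha genes lie on chromosome 18 from 36930184 to 37187661, the Pcdhb genes from 37264938 to 37524479 and the Pcdhg genes from 37661793 to 37841873, all on the plus strand. All 14 Pcdha and 22 Pcdhg gene models share exons with other protocadherins. The median share of exon bases that belong to no other gene on either strand was 46.4% for the Pcdha models and 54.7% for the Pcdhg models. For the Pcdhb models it was 100%, and 19 of 22 had no shared base. How reads in shared exons were handled, and whether strand was used, is not stated in the labels. The symbol Pcdha11 stands for 2 gene models in this annotation, and which of them its value belongs to cannot be told, so it was left out of comparisons per length. Pcdhgc4 and Pcdha10 were not analysed here.

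Of the 50-base words in the first exon, a median of 14.7% in the gene models of the Pcdha members, 4.26% in the Pcdhb members and 0.939% in the Pcdhg members also occurred in the first exon of another clustered gene, with a maximum of 23.4% for Pcdha7. Pcdhgc3, Pcdhgc5 and Pcdhac2 shared 0 such words. The highest shares were 16.8% for Pcdhgb1 and 16.4% for Pcdhgb2 among the gamma genes and 12% for Pcdhb12 among the beta genes. Reads from such words can be assigned to either gene or to none, which makes the values of these genes uncertain. The shares leave out the constant exons and the rest of the genome, so they do not measure the size of that uncertainty.

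Of the 5 symbols under the filter, 2 had few exon bases of their own. Pcdhga10 had a value of -0.01 with both treatments, and 0 of its 4732 exon bases were free of other genes, since the antisense gene Gm26672 covers its variable exon. On the plus strand alone 2613 of its bases were its own. Gm26672 itself had values of 3.46 to 3.53. Pcdha4, at 0.72 to 0.73, had 404 own bases of 5768. The other 3 had own exons of usual length: Pcdha8 (2.68 to 2.70) had 2478 bases, Pcdhac1 (3.24 to 3.26) had 2559 and Pcdh12 (0.53 to 0.55), a protocadherin of endothelial cells, had 6058. Pcdhac1 was the nearest symbol outside the filter, and Pcdhb1, at 4.36 to 4.40, was the lowest inside it. Of 7 endothelial markers in the same cultures 6 were under the filter, while Kdr stood at 6.44 to 6.52. Their summed level was 110 to 113 with astrocytic and 109 to 111 with microglial apoE. Their part in the Pcdh12 value was not tested.

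**Figure D2:**
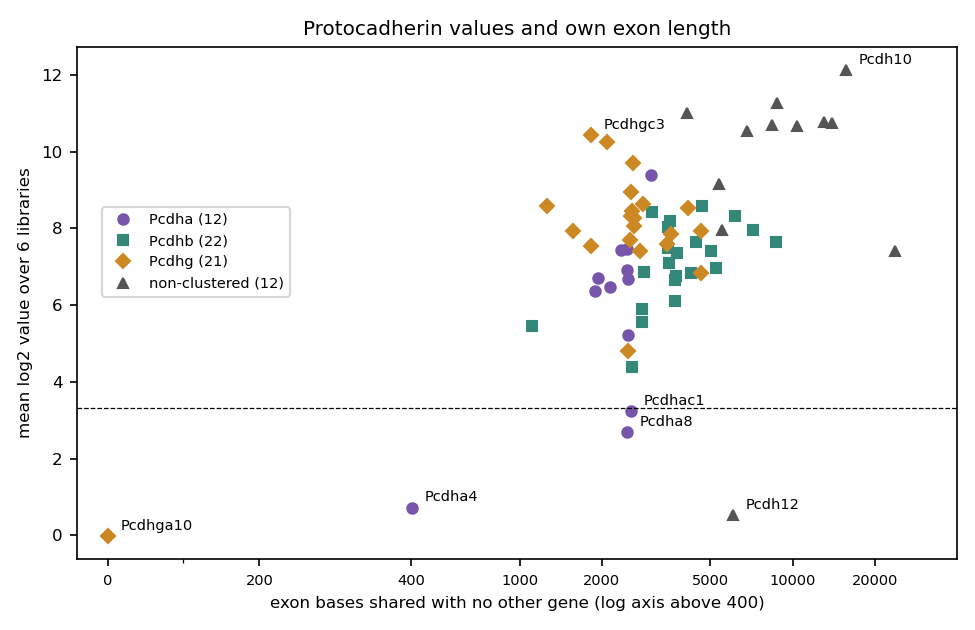
Mean log2 value over the 6 libraries (vertical axis) against exon bases that no other annotated gene shares (horizontal axis, linear up to 400 bases and logarithmic above), for 67 protocadherin symbols with a single gene model. The dashed line is the filter. Pcdhga10, with 0 own bases, and Pcdha4, with 404, lie at -0.01 and 0.72.

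Of the 11 non-clustered protocadherins 1 rose and 2 fell, and the called share of 27.3% was near the 24.8% of all genes tested. Their number was 1 without astrocytic replicate 1, microglial replicate 1 or microglial replicate 3. Pcdh11x (chromosome X, 120290259 to 120910619), a delta-1 protocadherin, was 10.82, 10.80 and 10.78 in the 3 astrocytic apoE libraries and 10.73, 10.59 and 10.71 in the 3 microglial apoE libraries. All microglial values lay below all astrocytic values, and the lowest was in microglial replicate 2. The fall was 1.09-fold (log2 difference -0.12 ± 0.032 SE, limma adjusted p = 0.0055). It passed in all 14 alternative analyses, at -0.15 to -0.08 and adjusted p of 0.0019 to 0.040. The difference was -0.08 without microglial replicate 2, -0.15 without microglial replicate 1 and -0.14 without microglial replicate 3.

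Pcdh10 (chromosome 3, 45378398 to 45435623), a delta-2 protocadherin that acts on the actin cytoskeleton and in synapse elimination, was 12.17, 12.12 and 12.21 with astrocytic and 12.10, 12.05 and 12.09 with microglial apoE. The groups did not overlap. The fall was 1.06-fold (-0.09 ± 0.028 SE, limma adjusted p = 0.028). The call was lost with the sum of 2 to the power of the value made equal (adjusted p = 0.075) and without any 1 library except astrocytic replicate 2 (adjusted p = 0.053 to 0.082).

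Pcdh18 (chromosome 3, 49743296 to 49757325), another delta-2 protocadherin, was 9.06, 9.08 and 9.15 with astrocytic and 9.27, 9.11 and 9.22 with microglial apoE. Microglial replicate 2 lay within the astrocytic range, so the groups overlapped. The rise was 1.07-fold (0.10 ± 0.037 SE, limma adjusted p = 0.047). The call was lost without astrocytic replicate 1 (adjusted p = 0.17), astrocytic replicate 2 (0.16), microglial replicate 1 (0.25) or microglial replicate 3 (0.16). It was also lost with median centring (0.098), without the trend and robust options (0.094) and with mitochondrial genes left out of the equal sum (0.071). Without microglial replicate 2 the difference was 0.15. In the same libraries 3 of 7 tested markers of mural cells and fibroblasts rose and 0 fell, the lowest of the 8 listed, Lum, stood at 2.21 to 2.24, and their summed level was 1755 to 1812 with astrocytic and 1931 to 1971 with microglial apoE. Their part in the Pcdh18 value was not tested.

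The 250 bases before the RefSeq start site (GRCm38.p6) are shown for Pcdh10 and Pcdh18, because these are the called members with an entry in the promoter table, and they moved in opposite directions on the same chromosome. Pcdh10 is given at chr3:45378148-45378397 on the plus strand and Pcdh18 at chr3:49757317-49757566 on the minus strand, each 5′ to 3′. Capitals mark CGCT or its reverse complement AGCG, the core of the sequence element that the promoters of clustered protocadherins share.
Pcdh10: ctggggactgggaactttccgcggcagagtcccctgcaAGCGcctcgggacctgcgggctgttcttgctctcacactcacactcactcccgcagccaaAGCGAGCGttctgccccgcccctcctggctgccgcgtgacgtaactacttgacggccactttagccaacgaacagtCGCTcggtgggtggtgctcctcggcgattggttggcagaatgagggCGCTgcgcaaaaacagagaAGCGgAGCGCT
Pcdh18: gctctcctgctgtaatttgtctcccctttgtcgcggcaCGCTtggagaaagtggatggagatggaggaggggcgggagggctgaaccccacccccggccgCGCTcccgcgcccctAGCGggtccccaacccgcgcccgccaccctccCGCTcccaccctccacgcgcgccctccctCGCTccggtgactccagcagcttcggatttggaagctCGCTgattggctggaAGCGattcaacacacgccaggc
CGCT was searched on both strands, with overlapping matches counted. The Pcdh10 window held 8 matches and 22 CpG dinucleotides, and the Pcdh18 window held 7 matches and 23 CpG dinucleotides. The 9 members that matched the table are all non-clustered, so no promoter of a clustered protocadherin was searched. At least 1 match occurred in the windows of all 9, where 55.7% of 32851 windows in the table held one. CGCT contains a CpG, and the member windows held a median of 17 CpG dinucleotides against 6 over all windows, so the 2 shares do not compare like windows. TATAAA, the core of the TATA box, occurred on neither strand of the Pcdh10 and Pcdh18 windows, and 12.4% of all windows held it. A match describes letters and no binding site.

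**Figure D3:**
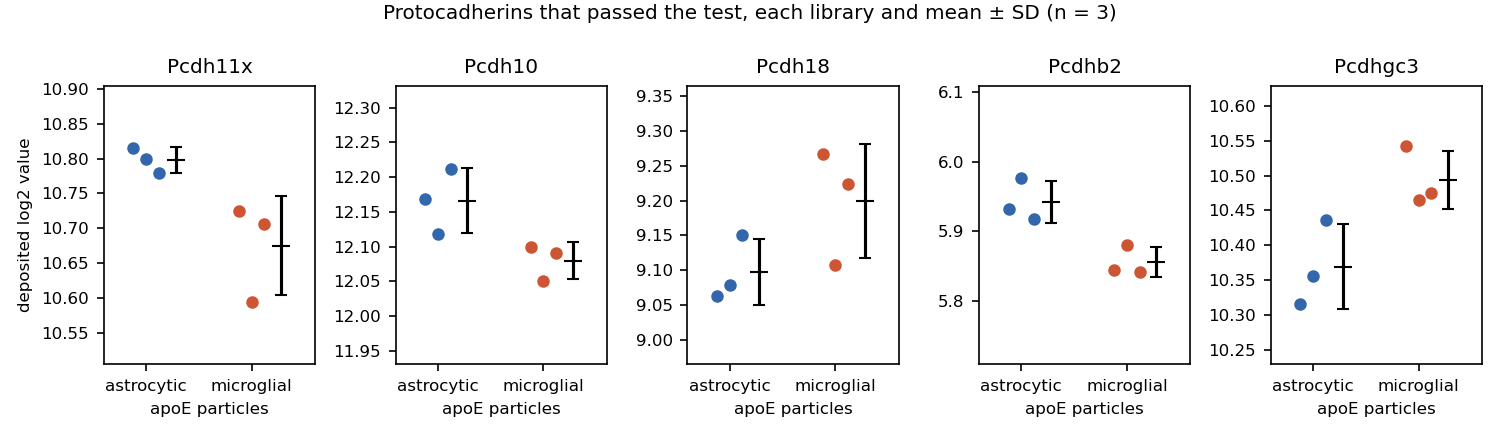
Deposited log2 values of the 5 called protocadherins (vertical axis, the same span of 0.4 in each panel) by apoE particle source. Coloured points are libraries, in the order of replicates 1 to 3, and the black bar is the mean ± SD (n = 3). The groups overlap for Pcdh18 and for none of the other 4.

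The other 8 non-clustered members did not pass. Pcdh1, Pcdh7 and Pcdh9, the remaining delta-1 genes, had differences of -0.05, -0.06 and -0.02 (SE 0.028, 0.032 and 0.030). Pcdh7 was 10.71, 10.74 and 10.71 with astrocytic and 10.69, 10.58 and 10.72 with microglial apoE, again with the lowest value in microglial replicate 2. Among the delta-2 genes, Pcdh8, which regulates cadherin uptake at active synapses, was 10.93, 10.94 and 11.08 with astrocytic and 11.03, 11.08 and 11.01 with microglial apoE (0.06 ± 0.034 SE, limma adjusted p = 0.23). It passed without astrocytic replicate 3, at 0.11. Pcdh17, which acts in presynaptic assembly, stood at 10.74 to 10.77 in all 6 libraries (0.0038 ± 0.027 SE, 95% interval -0.05 to 0.06). Pcdh19, the gene of a female-limited epilepsy, stood at 10.63 to 10.74 (-0.01 ± 0.031 SE, 95% interval -0.07 to 0.05). Pcdh20 (-0.03 ± 0.030 SE) and Pcdh15 (0.01 ± 0.029 SE), a tip-link protein of inner ear hair cells, were the 2 lowest members of the group per kilobase. The partner of Pcdh15 in the tip link, Cdh23, was near the filter, at 3.78 to 3.83, and did not pass either (-0.01 ± 0.014 SE).

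In the Pcdha cluster 0 of 10 members were called, against 24.8% of all genes tested. None had an unadjusted limma p under 0.05 either, where 5439 of all 15059 genes tested had one. Of the differences, 5 were above and 5 below 0 (median -0.0012). The highest difference was that of Pcdha5, with 7.44, 7.42 and 7.41 with astrocytic and 7.48, 7.46 and 7.50 with microglial apoE (0.06 ± 0.028 SE, limma adjusted p = 0.15). Its groups did not overlap. Pcdha7 had the lowest, with 6.44, 6.49 and 6.55 against 6.45, 6.46 and 6.42 (-0.05 ± 0.028 SE, adjusted p = 0.21). Pcdhac2, the C-type isoform that serotonergic neurons use for axon tiling, was 9.38, 9.40 and 9.44 with astrocytic and 9.37, 9.31 and 9.42 with microglial apoE (-0.04 ± 0.032 SE, adjusted p = 0.34). It made up 41.2% of the summed 2 to the power of the value of the cluster, with no correction for length.

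The Pcdhb cluster had 1 called gene of 22 (4.55%, against 24.8% of all genes tested). Pcdhb2 (chromosome 18, 37294812 to 37297624) was 5.93, 5.98 and 5.92 with astrocytic and 5.85, 5.88 and 5.84 with microglial apoE, with no overlap. It fell 1.06-fold (-0.09 ± 0.023 SE, limma adjusted p = 0.0072), and the call was lost without astrocytic replicate 2 (adjusted p = 0.065). As a single-exon gene it shares no exon base with another gene, and 2.1% of its 50-base words occur in another clustered gene. Most other beta genes leaned the same way without passing: 18 of 22 differences were below 0, with a median of -0.03. Among all 15059 genes tested, 7594 were below 0. At levels of 4 to 6 that held for 1280 of 2169 genes, and at 6 to 8 for 1544 of 2770. At 8 to 10 it held for 2275 of 4798. A scaling moves all genes alike: the number below 0 was 20 of 22, and 63.2% of all genes, after median centring, and 16 of 22, and 40.3% of all genes, with the sum made equal. Without microglial replicate 2 it was 15 of 22 and the median was -0.01. Pcdhb19 (-0.07 ± 0.031 SE, limma adjusted p = 0.086) and Pcdhb18 (-0.07 ± 0.031 SE, adjusted p = 0.12), neighbours on the chromosome and named after their values were seen, came next. Both passed after median centring. The highest difference was that of Pcdhb5 (0.04 ± 0.029 SE, adjusted p = 0.34).

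In the Pcdhg cluster 1 of 20 members passed (5%, against 24.8% of all genes tested). Pcdhgc3 (chromosome 18, 37806364 to 37841873), a C-type isoform that promotes dendrite branching in cortical neurons, was 10.32, 10.36 and 10.44 with astrocytic and 10.54, 10.46 and 10.47 with microglial apoE. All microglial libraries were above all astrocytic ones. The rise was 1.09-fold (0.12 ± 0.032 SE, limma adjusted p = 0.0055). The call was lost without astrocytic replicate 1 (adjusted p = 0.055) and without microglial replicate 1 (0.057), and it passed in the other 12 alternative analyses. The antisense gene BC037039 overlaps Pcdhgc3, had values of 4.62 to 4.67 and did not pass (-0.01 ± 0.017 SE), and without strand information reads from the pair cannot be told apart. Pcdhgc3 rose in the libraries in which 9 of 11 tested astrocyte markers fell. Gfap was 12.99 to 13.01 with astrocytic and 11.90 to 11.93 with microglial apoE, a 12th listed marker, Gjb6, stood at -0.26 to -0.25 in all 6 libraries, and their part in its value was not tested.

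Pcdhgc5, the other C-type gamma isoform among the members, was 6.91, 6.85 and 6.90 with astrocytic and 6.77, 6.80 and 6.86 with microglial apoE, which overlap narrowly (-0.07 ± 0.029 SE, limma adjusted p = 0.064). It passed after median centring, with mitochondrial genes left out of the equal sum and without microglial replicate 3. Of the A-type and B-type gamma genes, which number 18 here, none passed. Their differences ran from -0.04 for Pcdhga5 to 0.07 for Pcdhga1, both chosen after their values were seen. The cluster median was 0.01, and it was 0.03 without microglial replicate 2 and -0.01 with median centring.

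Summed over the members, each group of genes stayed within a few percent between treatments. On the 2 to the power of the value scale the Pcdha members summed to 1636 ± 18.0 (SD, n = 3) with astrocytic apoE and to 1617 ± 27.0 with microglial apoE. The Pcdhb members summed to 3744 ± 9.88 and 3684 ± 45.6. For the Pcdhg members the sums were 7864 ± 84.5 and 8040 ± 130.4, and for the non-clustered members 18481 ± 345 and 18012 ± 338. The ratios of microglial to astrocytic apoE were 0.989, 0.984, 1.02 and 0.975 in that order. The ranges of the 3 libraries overlapped for Pcdha and Pcdhg. For Pcdhb, the 3 microglial sums of 3691, 3635 and 3726 lay below the lowest astrocytic sum of 3733. The non-clustered sums were 18278, 18285 and 18879 with astrocytic and 18159, 17625 and 18253 with microglial apoE, which did not overlap either, although the nearest libraries lay close together. Both separations depend on the scaling. Making the sum over all genes equal takes a log2 shift of 0.014 from astrocytic replicate 1 and of -0.0068 from microglial replicate 3. The Pcdhb and the non-clustered sums of the 2 treatments then overlap. With median centring, or with mitochondrial genes left out of the equal sum, both stay apart. The sums get no test. The leading gene held 41.2% of the Pcdha sum, 10% of the Pcdhb sum, 17.4% of the Pcdhg sum and 24.5% of the non-clustered sum.

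**Figure D4:**
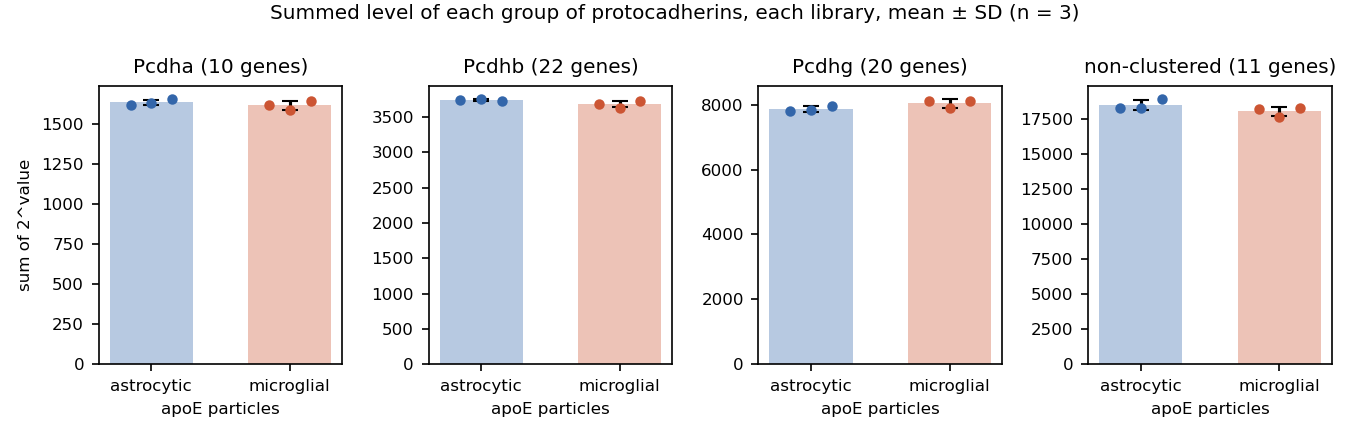
Sum of 2 to the power of the deposited value over the members of each group (vertical axis from 0) by apoE particle source. Bars are means, error bars SDs (n = 3) and points libraries. The ratio of the microglial to the astrocytic mean is 0.975 to 1.02 in the 4 panels.

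Levels within a cluster differed far more than treatments did. They were compared per kilobase of exon that no other gene shares, on the log2 scale, with the astrocytic apoE libraries as the reference. Among the 20 gamma genes the highest was Pcdhgc3 at 9.50, followed by Pcdhga8 at 9.17, Pcdhga3 at 8.33 and Pcdhga11 at 8.23. The lowest was Pcdhgb8, annotated as a polymorphic pseudogene, at 3.46, and the range from it to Pcdhgc3 was 66.2-fold. Counting only genes on the same strand as sharing a base, Pcdhga8 led at 8.91, Pcdhgc3 followed at 8.61, Pcdhga11 was 6th at 7.16 and the range of the cluster was 43.7-fold. By total exon length too Pcdhga8 ranked above Pcdhgc3, so the order of these 2 depends on which bases were counted. Pcdhgc5 was 19th of 20, at 4.68.

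Among 9 alpha genes Pcdhac2 was highest at 7.81, followed by Pcdha5 at 6.19 and Pcdha3 at 6.16, and Pcdha1 was lowest at 3.92. Pcdha5 and Pcdha3 differed by less than the SD of 0.05 of Pcdha3. In the beta cluster Pcdhb9 led at 6.84, followed by Pcdhb20 and Pcdhb17, both at 6.37 and within their SDs of each other. Pcdhb1, at the 5′ end of the cluster, was lowest at 3.02, and the range was 14.1-fold. Non-clustered genes were led by Pcdh8 at 8.95, then Pcdh10 at 8.19 and Pcdh1 at 8.16, and Pcdh15 was lowest at 2.84. Pcdh10 and Pcdh1 differed by less than the SD of either and exchanged places in the microglial apoE libraries.

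The order hardly moved between treatments. The rank was the same with both particle sources for 7 of 9 alpha, 18 of 22 beta, 16 of 20 gamma and 9 of 11 non-clustered genes, and no gene moved by more than 1 place.

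**Figure D5:**
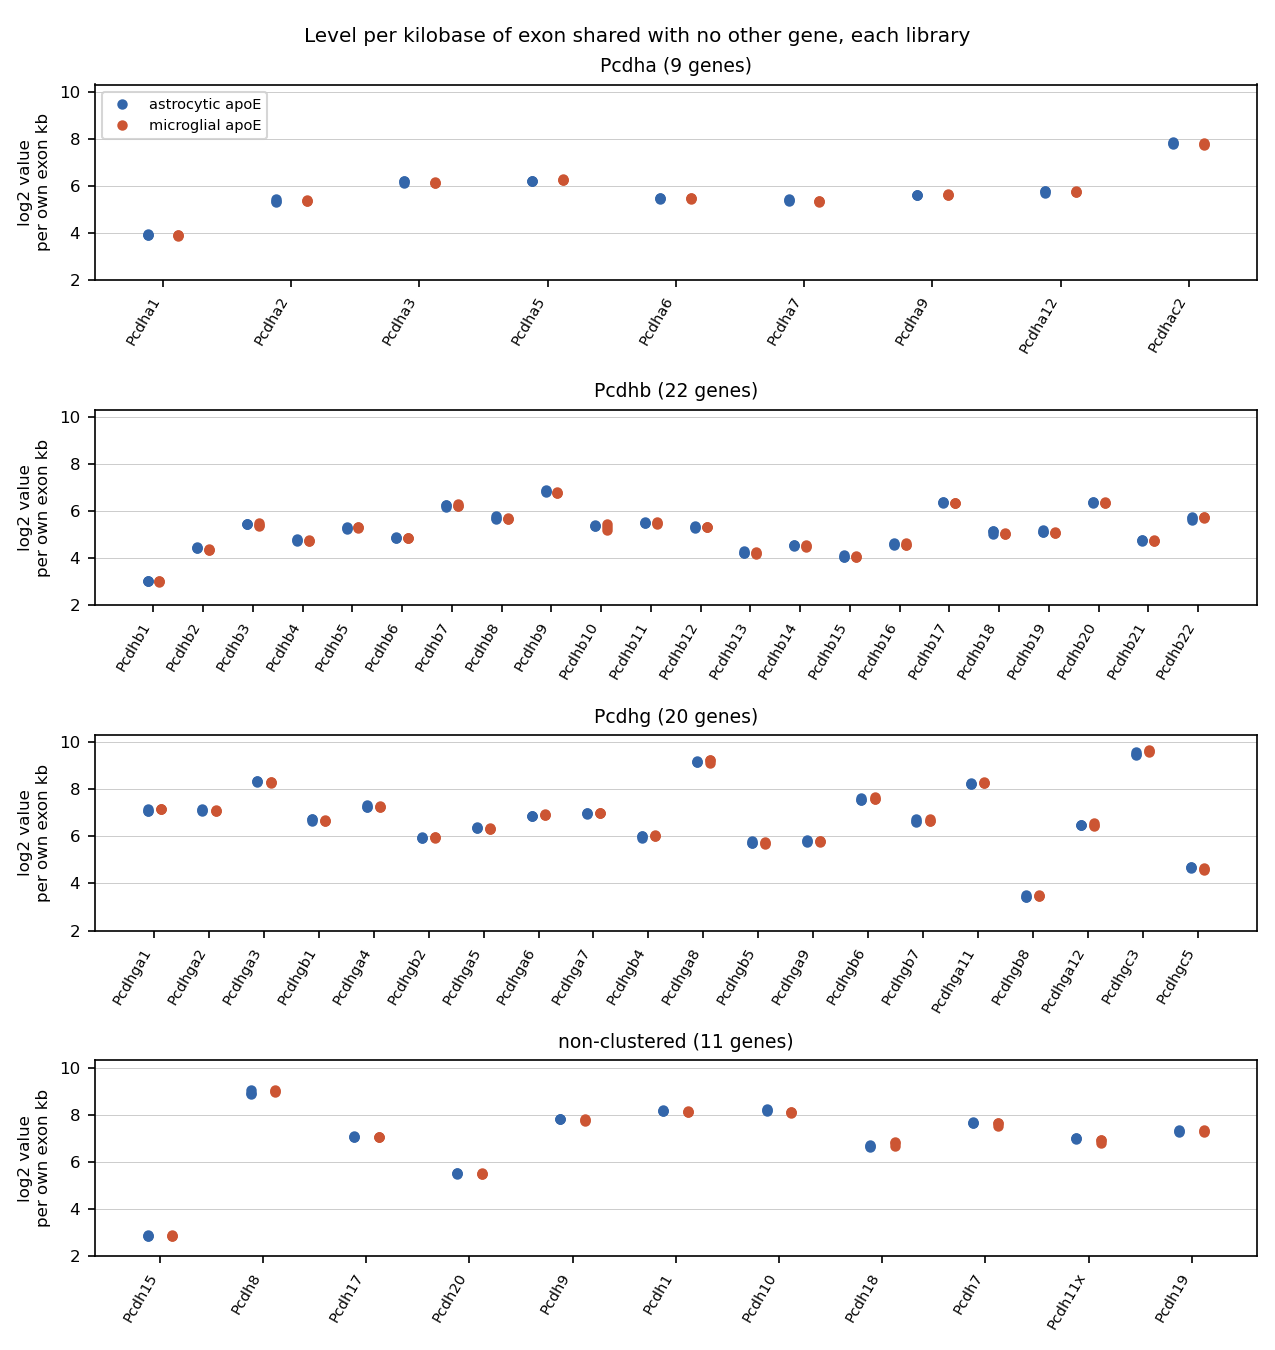
Log2 value per kilobase of exon shared with no other gene (vertical axis, the same in each panel) in each library, for 62 protocadherins in chromosomal order. Blue points are astrocytic and red points microglial apoE libraries. The highest gamma genes are Pcdhgc3 and Pcdhga8, and the points of the 2 treatments lie close together for each gene.

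Of 25 genes that control clustered protocadherin promoters, 2 rose, 1 fell and 22 did not pass (median -0.00058), a called share of 12% against 24.8% of all genes tested. Trim28, a corepressor that recruits the histone methyltransferase of silent chromatin, was 12.38, 12.38 and 12.47 with astrocytic and 12.56, 12.62 and 12.58 with microglial apoE (0.18 ± 0.029 SE, limma adjusted p = 5.1e-05). Wiz, a zinc finger partner of the histone methyltransferases Ehmt1 and Ehmt2, rose by 0.09 ± 0.030 SE and the cohesin subunit Stag2 had a log2 difference of -0.11 ± 0.029 SE, also called. CTCF itself (Ctcf, 0.07 ± 0.027 SE, adjusted p = 0.051) and the cohesin subunit Rad21 (-0.07 ± 0.026 SE, adjusted p = 0.068) came next, and Smchd1, which silences clustered protocadherins, had -0.02 ± 0.029 SE. These 3 are named for their roles and not by rule. The count was 1 without astrocytic replicate 1 and 6 without microglial replicate 2.

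Of 21 intracellular partners, 4 rose and 3 fell (median 0.02), a called share of 33.3% against 24.8% of all genes tested. Set, a phosphatase inhibitor that Pcdh7 binds, rose by 0.10 ± 0.026 SE. Rac1, a GTPase of actin remodelling, and the kinase Fyn rose by 0.09 ± 0.027 and 0.08 ± 0.026 SE. The receptor tyrosine kinase Ret, which associates with clustered protocadherins, had a called difference of -0.10 ± 0.032 SE. The count of 7 was 4 with no filter on low values and with the sum made equal, and 2, 3, 3 and 1 without astrocytic replicates 1 and 2 and microglial replicates 1 and 3.

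Gamma protocadherins are cleaved by ADAM10 and then by gamma-secretase. The list of 9 genes held Adam10, the gamma-secretase genes and also Adam17, which is in neither step. Of the 9, 5 were called (55.6%, against 24.8% of all genes tested), 4 of them lower, with a median of -0.0013. Adam10 was 10.64, 10.65 and 10.63 with astrocytic and 10.51, 10.51 and 10.52 with microglial apoE, with no overlap (-0.12 ± 0.027 SE, limma adjusted p = 0.0015). Adam17 (-0.11 ± 0.031 SE) and the gamma-secretase subunit genes Aph1b (-0.09 ± 0.029 SE) and Psenen (-0.09 ± 0.030 SE) also fell. The count of 5 was 3 with no filter on low values and 1 to 3 without any 1 library except astrocytic replicate 3.

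In the rest of the cadherin superfamily 11 of 29 tested genes were called, 4 higher and 7 lower, with a median difference of -0.02. The called share was 37.9%, against 24.8% of all genes tested. Fat1, a giant atypical cadherin, was 11.24, 11.24 and 11.34 with astrocytic and 11.62, 11.44 and 11.56 with microglial apoE (0.27 ± 0.040 SE, limma adjusted p = 0.00012). Cdh24 rose by 0.19 ± 0.033 SE. Cdh13, a cadherin anchored by a lipid instead of a transmembrane segment, was called lower at -0.18 ± 0.027 SE, as was Cdh22 at -0.14 ± 0.033 SE. The count of 11 was 6 without astrocytic replicate 2 and 6 without microglial replicate 3. Of 6 tested catenins, which link classical cadherins to actin, Ctnna1 (0.14 ± 0.027 SE) and Ctnnd2 (0.07 ± 0.027 SE) rose. That is 33.3% of the catenins, against 24.8% of all genes tested. The count of called catenins was 1 with median centring and without any 1 library except astrocytic replicate 3. The shares called, 37.9% of these cadherins and 7.94% of the protocadherins, were not tested against each other.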

How the data were processed

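Total RNA of 6 samples of hippocampal primary neurons was sequenced on a BGI platform, per the labels. Build GRCm38 and the tools HISAT2, featureCounts, DESeq2 and FastQC appear, without versions, in the submitters' processing notes. The deposited files hold 1 log2 value per symbol and library and no counts. That the authors applied a regularized logarithm is inferred: 21031 symbols were at 0 in all libraries, and low genes are drawn towards their mean. Depth is unknown.

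Genes with a value of at least 3.3 in 3 libraries were fitted with limma 3.58.1 (trend and robust) in R 4.3.3, with treatment as the only term. A gene was called at a Benjamini-Hochberg adjusted p under 0.05. The procedure was tested on simulated data. Tables and figures used Python 3.11.15, pandas 2.3.3 and matplotlib 3.10.9. Errors of differences are limma's SEs. The members and lists were chosen with earlier results of these data known. Named genes are all non-clustered and C-type members, all called members, the extremes in difference and level of each cluster, the symbols nearest the filter and up to 4 called genes per list with the smallest p. The values of 1 listed gene are not reported here. Alternatives changed the scaling, filter, variance model, block or libraries, and equal sums without mitochondrial genes were added after seeing the data. Titles number the samples of both treatments 1 to 3.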

Additional observations from a re-analysis of the deposited data

How the results depend on the processing

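Of the 5 called members, Pcdh11x passed in all 14 alternatives, Pcdhb2 in 13, Pcdhgc3 in 12, Pcdh10 in 8 and Pcdh18 in 7, and none changed sign. Uncalled members near 0 did. Pcdh19 had 0.0036 with equal sums and 0.018 and 0.010 without astrocytic replicate 3 and microglial replicate 2. Pcdh15 had -0.0043 with median centring and -0.00025 without microglial replicate 3. Pcdh17 had -0.015 with median centring, -0.0064 with mitochondrial genes left out of equal sums and -0.0045 without astrocytic replicate 1, and Pcdh9 had 0.0050 without microglial replicate 2. Without 1 library Pcdh19 ranged from -0.037 to 0.018, Pcdh15 from -0.00025 to 0.027, Pcdh17 from -0.0045 to 0.0090 and Pcdh9 from -0.047 to 0.0050.

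Without 1 library the called members numbered 2 to 6, with 0 to 3 higher and 2 to 4 lower. By group they numbered 0 to 2 for Pcdhb and Pcdhg and 1 to 3 for non-clustered genes. The median differences were -0.0088 to 0.0073 for Pcdha, -0.029 to -0.011 for Pcdhb, -0.0013 to 0.027 for Pcdhg and -0.037 to 0.0050 for non-clustered genes. List counts were 1 to 6 for promoter regulators, 1 to 9 for partners, 1 to 5 for proteolysis, 6 to 13 for other cadherins and 1 to 2 for catenins.

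Median centring gave 1 member higher and 6 lower, 3 Pcdhb and 2 Pcdhg genes, 2767 lower genes in all, 1 catenin, and medians of -0.020 for Pcdha, -0.044 for Pcdhb and -0.0088 for Pcdhg. Equal sums gave 2 Pcdhg genes, 4 partners and medians of 0.012 for Pcdha and -0.012 for Pcdhb. Without mitochondrial genes in that sum there were 1 member higher and 5 lower, 2 Pcdhb and 2 Pcdhg genes, 1 catenin, and medians of -0.011 for Pcdha and -0.036 for Pcdhb. No filter gave 4 partners, 3 proteolysis genes and 1 catenin. Limma without trend and robust gave 1 member higher and 1 catenin. The cause of these changes was not tested. Same-numbered samples correlated at -0.19 to 0.04 in their deviations from the treatment means, and differently numbered ones at -0.12 to 0.18. Deviations from a mean of 3 libraries sum to 0, so these values cannot decide whether the numbers pair the samples. The replicate block left the 5 called members and gave 4 partners and 1 catenin. Depth is unknown, so no counting limit can be given.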

Other observations

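Microglial replicate 2 held the lowest value of 21 of the 63 protocadherins (33.3%) and the highest of 1, where it held the lowest value of 20.5% and the highest of 21.0% of all genes tested. The median deviation of the non-clustered members from their mean over the 6 libraries was -0.04 in that library and lay between -0.0041 and 0.01 in the other 5. For the Pcdhb members the median deviation was -0.02 there, and it was -0.01 and -0.0033 in microglial replicates 1 and 3. Without that library the median difference of the non-clustered members was 0.0050 instead of -0.02.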
